A study of Mus musculus with 6 samples.

Results

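Genes of the T cell lineage were followed in plasmacytoid dendritic cells (pDCs) grown with and without tamoxifen. The members were 10 genes fixed by name, namely *Cd3d*, *Cd3e*, *Cd3g*, *Cd247*, *Ptcra*, *Lck*, *Zap70*, *Tcf7*, *Gata3* and *Bcl11b*. A gene was measured if the platform table paired a probe set with its symbol alone, and where a gene had several such probe sets the one with the highest mean over all 6 arrays was kept. By this rule 8 of the 10 genes were measured, each with 1 probe set, out of 19937 genes named by 21640 probe sets in the whole series. *Lck* and *Tcf7* had no such probe set in the table used here and were not analysed. KO pDCs came from bone marrow of C57BL/6 mice of the genotype Gfi1f/f; Gfi1bf/f; ERCre, cultured in 25 ng/ml Flt-3L with 1 µM tamoxifen, and WT pDCs came from the untreated part of the same bone marrow, so that both groups carried the floxed alleles and the Cre. The Cre is the tamoxifen-inducible ERT2 form, expressed from the *Rosa26* locus and not only in pDCs. There were 3 KO and 3 WT arrays, 1 of each from every one of 3 mice, and cells had been sorted as B220+ CD11c+ before RNA extraction. No tamoxifen-treated culture without floxed alleles was among the samples, so an effect of the drug or of Cre and an effect of the deletion cannot be told apart.

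Developing T cells build their antigen receptor in steps. The CD3 chains, encoded by *Cd3d*, *Cd3e*, *Cd3g* and *Cd247*, carry the receptor's signal into the cell, and the pre-T alpha chain encoded by *Ptcra* stands in for the alpha chain of the receptor in thymocytes. LCK phosphorylates the CD3 chains, ZAP70 docks on them, and the transcription factors TCF1 (from *Tcf7*), GATA3 and BCL11B direct progenitors into the lineage downstream of Notch. Plasmacytoid dendritic cells are producers of type I interferon that share some genes with lymphocytes, and in human pDCs *PTCRA* is a known marker. GFI1 and GFI1B are zinc finger repressors whose recognition sequence has the core AATC. The comparison asked whether T lineage genes differed when tamoxifen was given to delete *Gfi1* and *Gfi1b*.

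Arrays give intensities on a linear scale with a background that differs between probe sets. Intensities of different genes therefore do not rank their transcripts. As a yardstick, 1208 probe sets of olfactory and vomeronasal receptor genes, genes of the sense of smell, had a median intensity of 18.5 and a 95th percentile of 61.5 (from each probe set's mean log2 value over 6 arrays). The means of 3 of the 8 members lay above that 95th percentile, and those of the other 5 lay below it. Within the pDC marker list all 13 measured genes lay above it on each of the 6 arrays, with *Siglech* at 6439, 4795 and 4169 in the KO arrays of mice 1, 2 and 3 and at 6917, 3900 and 2721 in the WT arrays. Markers of other cells were present too. The summed intensity of 8 macrophage genes was 4309, 13462 and 15912 in the KO arrays of mice 1, 2 and 3 and 4780, 17715 and 18405 in the WT arrays, and that of 8 stromal cell genes was 472, 2834 and 2918 in KO and 537, 7948 and 8517 in WT. In pooled cells such as these, fewer cells of a type and less RNA per cell cannot be told apart. *Gfi1* had 60.5, 67.1 and 61.9 in KO and 56.1, 47.8 and 43.3 in WT, and *Gfi1b* 194, 279 and 259 in KO and 179, 161 and 155 in WT. Both were higher in KO in every mouse with no overlap between the groups, by 0.37 and 0.55 on the log2 scale (standard errors 0.12 and 0.16, adjusted p = 0.69 each in limma). Each has 1 probe set for the whole transcript, so these values do not check the deletion, which was incomplete in such cultures by the study's own genotyping.

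The sequences before the start sites of 4 members are shown because *Cd3g* and *Cd3d* are direct neighbours that point away from each other, *Ptcra* had the highest mean of the members and *Bcl11b* was the member whose KO and WT arrays did not overlap. Each is the 250 bases before the RefSeq start (GRCm38.p6), 5′ to 3′ on the gene's strand. Capitals mark AATC, the core of the GFI1 sequence, and CANNTG, the E box bound by E proteins such as TCF4, read on both strands.
Cd3g, chr9:44980432-44980681, minus strand: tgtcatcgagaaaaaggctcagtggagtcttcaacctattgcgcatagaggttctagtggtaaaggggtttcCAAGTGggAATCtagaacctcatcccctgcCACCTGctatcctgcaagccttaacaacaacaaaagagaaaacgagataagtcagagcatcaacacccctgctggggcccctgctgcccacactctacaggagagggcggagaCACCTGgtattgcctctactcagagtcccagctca
Cd3d, chr9:44981536-44981785, plus strand: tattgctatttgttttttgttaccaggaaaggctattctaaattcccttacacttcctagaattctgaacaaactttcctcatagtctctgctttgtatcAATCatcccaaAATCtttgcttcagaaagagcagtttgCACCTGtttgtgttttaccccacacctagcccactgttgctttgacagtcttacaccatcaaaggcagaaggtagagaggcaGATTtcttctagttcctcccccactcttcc
Ptcra, chr17:46763713-46763962, minus strand: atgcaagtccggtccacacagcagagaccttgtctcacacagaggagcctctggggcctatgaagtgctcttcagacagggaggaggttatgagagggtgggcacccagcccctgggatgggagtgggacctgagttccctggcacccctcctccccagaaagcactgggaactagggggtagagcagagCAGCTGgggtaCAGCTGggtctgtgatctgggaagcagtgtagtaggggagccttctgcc
Bcl11b, chr12:108003415-108003664, minus strand: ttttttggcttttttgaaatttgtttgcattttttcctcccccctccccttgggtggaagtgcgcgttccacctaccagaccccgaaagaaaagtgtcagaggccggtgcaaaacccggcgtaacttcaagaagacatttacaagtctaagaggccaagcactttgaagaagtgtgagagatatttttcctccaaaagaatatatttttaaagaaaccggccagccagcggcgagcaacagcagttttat

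In RefSeq, *Cd3g*, *Cd3d* and *Cd3e* follow each other on chromosome 9 with no other annotated gene start between them. *Cd247* and *Zap70* lie on chromosome 1, *Gata3* on chromosome 2, *Bcl11b* on chromosome 12 and *Ptcra* on chromosome 17. AATC occurred 1 time in the window of *Cd3g*, 3 times in that of *Cd3d* and not at all in those of *Ptcra* and *Bcl11b*, while 69.0% of 32851 such windows in RefSeq held it at least 1 time. CANNTG occurred 3 times before *Cd3g*, 1 time before *Cd3d* and 2 times before *Ptcra*, where both copies read CAGCTG, and was not found before *Bcl11b*, against 66.2% of all windows with at least 1. The longer AATCAC, which contains AATC, was in 9.14% of all windows and, among the 8 measured members, in 1 of the 3 windows of *Zap70* only. These matches describe letters in the window and are not evidence of binding.

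None of the 8 members passed an adjusted p of 0.05 in limma, and neither did any of the 21640 probe sets (0.0% called, smallest adjusted p 0.69). With the mouse as a block the share called was also 0.0% (smallest adjusted p 0.071). The KO minus WT differences of the members ran from -0.04 for *Ptcra* to 0.29 for *Bcl11b* on the log2 scale, with a median of 0.12, and 7 of the 8 were above 0. Their 95% intervals in the fit all lay between -0.62 and 0.72, or between -0.34 and 0.54 with the mouse as a block. None thus included a change by 2-fold, which is 1 on this scale, at the level of the measured intensity. For genes at background such intensities understate a change in the transcript. The median over all probe sets was 0.03, and that over the receptor probe sets was 0.14, with 82.5% of those above 0.

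Of the CD3 chains *Cd3e* lay above the 95th percentile of the receptors on all 6 arrays, *Cd3g* on 4 and *Cd3d* on none. *Cd3e* (probe set 10593024), whose protein forms dimers with the delta and gamma chains, had intensities of 93.3, 111 and 116 in the KO arrays of mice 1, 2 and 3 and 77.8, 115 and 94.1 in the WT arrays. The groups overlapped, and the array with the lowest value in each group was that of mouse 1. The log2 difference, KO minus WT, was 0.17 (standard error 0.17, adjusted p = 0.83), with 0.26, -0.05 and 0.30 in mice 1, 2 and 3. Single arrays moved it most in WT, where leaving out mouse 1 gave 0.03 and leaving out mouse 2 gave 0.31. *Cd3g* (probe set 10593015), the gamma chain, had 57.3, 93.6 and 81.6 in KO and 52.4, 82.2 and 80.1 in WT. Both arrays of mouse 1 fell below the 95th percentile of the receptors, and the arrays of mice 2 and 3 lay above it. Its log2 difference was 0.12 (standard error 0.25, adjusted p = 0.93), with 0.13, 0.19 and 0.03 in mice 1, 2 and 3. With the mouse as a block its standard error was 0.10 and its 95% interval -0.12 to 0.35. The range of *Cd3g* over the mice was 0.71 in KO and 0.65 in WT. *Cd3d* (probe set 10584821), the delta chain, had 36.2, 44.0 and 50.8 in KO and 29.2, 41.1 and 39.6 in WT. *Cd3d* was higher in the KO array of every mouse, by 0.31, 0.10 and 0.36, with a mean of 0.26 (standard error 0.18, adjusted p = 0.77), but the KO and WT ranges overlapped. With the mouse as a block its standard error was 0.10 and its adjusted p 0.36.

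*Cd247* (probe set 10351353) encodes the zeta chain, which T cells share with NK cells. Its intensities were 59.7, 57.1 and 60.5 in KO and 57.9, 65.2 and 52.7 in WT. The KO values lay inside the WT range, and 1 of the 6 arrays, the WT array of mouse 2, was above the 95th percentile of the receptors. The log2 difference was 0.02 (standard error 0.11, 95% interval -0.24 to 0.28, adjusted p = 0.98).

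**Figure D1:**
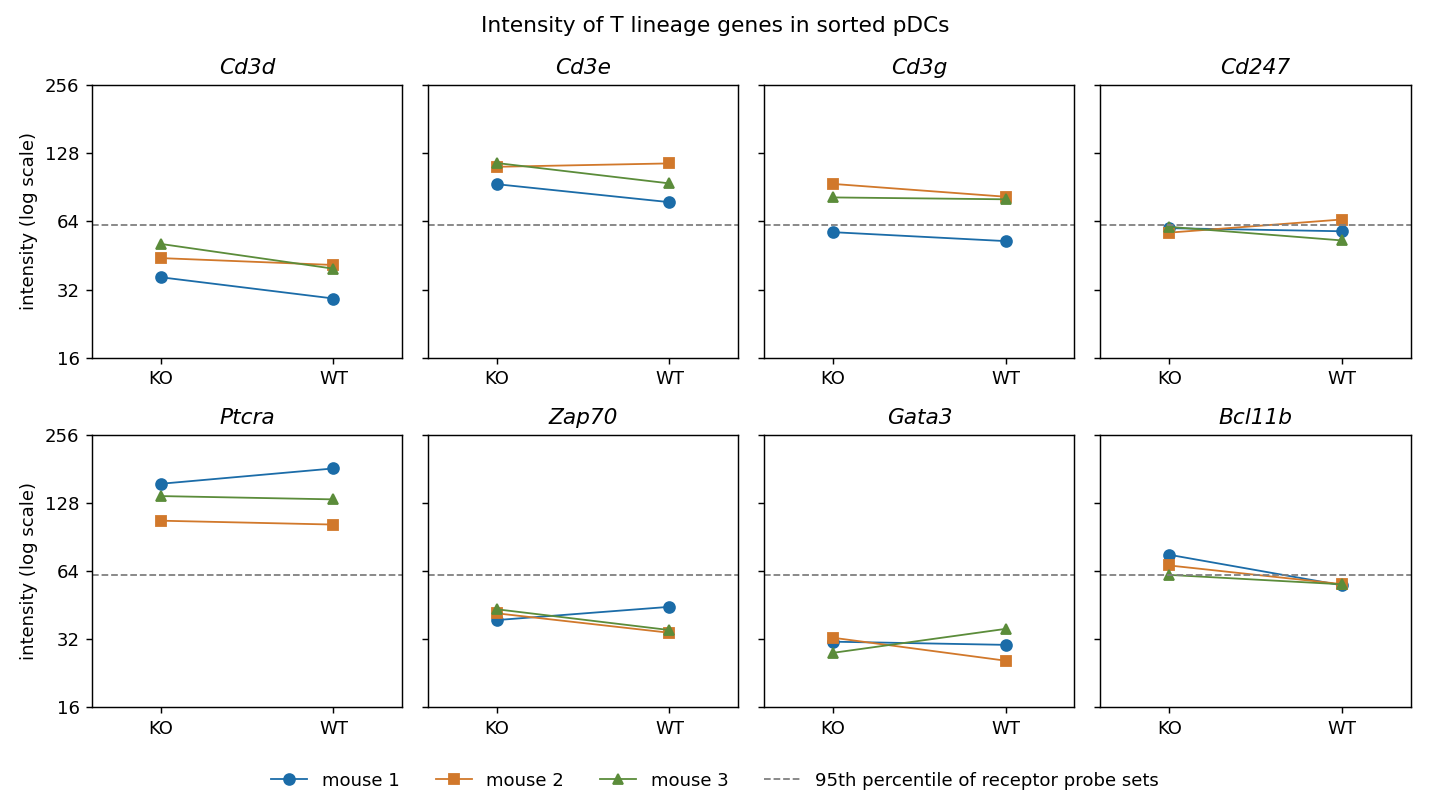
Intensity (log scale) of the 8 measured T lineage genes in KO and WT pDCs. Each symbol is 1 array, lines join the arrays of a mouse, and the dashed line is the 95th percentile of receptor probe sets (61.5). *Ptcra* and *Cd3e* lie above the line on all 6 arrays, while *Cd3d*, *Zap70* and *Gata3* lie below it on all 6.

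*Ptcra* (probe set 10451465) had intensities of 155, 107 and 137 in the KO arrays of mice 1, 2 and 3 and 181, 103 and 132 in the WT arrays. All 6 lay above the 95th percentile of the receptors. The mice kept the same order in both groups, with mouse 1 highest and mouse 2 lowest, and the KO and WT ranges overlapped, with means of 133 ± 24.6 in KO and 139 ± 39.8 in WT (SD, n = 3 each). The log2 difference was -0.22, 0.06 and 0.05 within mice 1, 2 and 3, with a mean of -0.04 (standard error 0.24, adjusted p = 0.98). With the mouse as a block its standard error was 0.11 and its 95% interval -0.30 to 0.22.

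*Zap70* (probe set 10345509), the kinase that binds phosphorylated CD3 chains, had 38.8, 41.6 and 43.3 in KO and 44.4, 34.1 and 35.1 in WT. It was lower in the KO array of mouse 1, by -0.19, and higher in those of mice 2 and 3, by 0.28 and 0.30. The mean difference was 0.13 (standard error 0.13, adjusted p = 0.83), and it was 0.29 (standard error 0.11, adjusted p = 0.26) without both arrays of mouse 1. All 6 arrays lay below the 95th percentile of the receptors.

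Of the transcription factors, *Gata3* (probe set 10479981), which also acts in innate lymphoid cells, had 31.2, 32.4 and 27.8 in KO and 30.2, 25.7 and 35.5 in WT. The KO values lay inside the WT range and the sign differed between mice, with 0.05, 0.34 and -0.35 in mice 1, 2 and 3. The mean difference was 0.01 (standard error 0.14, 95% interval -0.33 to 0.36, adjusted p = 0.99). *Bcl11b* (probe set 10402554), which is needed for commitment to the T lineage, had 75.4, 67.6 and 61.5 in KO and 55.3, 56.0 and 55.9 in WT. The lowest KO array was above the highest WT array. The WT arrays spanned 0.02 on the log2 scale and the KO arrays 0.30. Only the KO arrays of mice 1 and 2 were above the 95th percentile of the receptors, and that of mouse 3 lay just below it. The means were 68.2 ± 6.995 in KO and 55.7 ± 0.358 in WT (SD, n = 3 each). The log2 difference was 0.45, 0.27 and 0.14 in mice 1, 2 and 3, with a mean of 0.29 (standard error 0.10, 95% interval 0.03 to 0.54). It did not pass the test over all probe sets (adjusted p = 0.69 in limma, or 0.34 with the mouse as a block). Without both arrays of mouse 1 the difference was 0.21 (adjusted p = 0.39). In an exact two-sided permutation test of the arrays p was 0.10, the smallest that 3 arrays against 3 allow. Groups that do not overlap always give this value, so the test adds nothing to the lack of overlap. It also left out the pairing by mouse. The other members had 0.40 or more in the same permutation test.

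**Figure D2:**
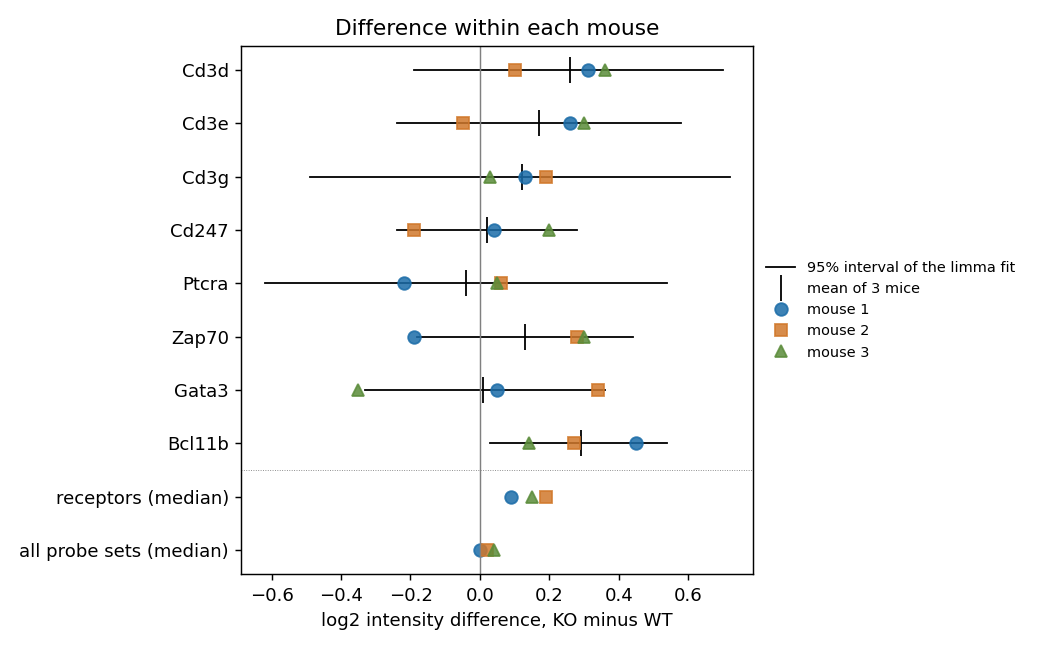
Log2 intensity difference, KO minus WT, within each mouse (symbols) for the 8 genes, with the mean of 3 mice (vertical tick) and the 95% interval of the limma fit (horizontal line). The lower rows give the medians over 1208 receptor probe sets and all 21640 probe sets. *Bcl11b*, *Cd3d* and *Cd3g* were above 0 in all 3 mice.

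Counts of members past a given line are set beside the same count over all 21640 probe sets. At an unadjusted p under 0.05, 1 member, *Bcl11b*, was higher in KO, where 5.14% of all probe sets were, a share that depended on the scaling of the arrays and on single mice. With the mouse as a block these were *Bcl11b* and *Cd3d*, 2 of 8, against 7.46% of all probe sets. Of the 1208 receptor probe sets, 148 were higher in KO at an unadjusted p under 0.05, and 213 with the block. KO was higher in every mouse for 3 of the 8 members (37.5%), for 21.3% of all probe sets and for 35.6% of the receptor probe sets. The KO and WT arrays did not overlap, with KO higher, for 1 of the 8 (12.5%), for 10.2% of all probe sets and for 19.8% of the receptor probe sets. The medians of the 8 members were 0.09, 0.14 and 0.17 in mice 1, 2 and 3, and those of the receptors were 0.09, 0.19 and 0.15. In every mouse both medians were above 0, and they lay within 0.05 of each other. The part that this shift of dim probe sets has in the values of *Bcl11b* and *Cd3d* was not tested.

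The range over the mice exceeded the mean KO minus WT difference in both groups for 7 of the 8 members, all but *Bcl11b*. As each mouse gave an array to both groups, this range does not measure the spread of the differences within mice. Mouse 1 was singled out after its values were seen, as the first principal component, with 70.8% of the variance over all probe sets, set both its arrays apart. Relative to the mean of mice 2 and 3, the arrays of mouse 1 were lower for *Cd3g* by a log2 difference of -0.61 in KO and -0.63 in WT, for *Cd3e* by -0.28 and -0.42 and for *Cd3d* by -0.38 and -0.46. The 3 neighbouring CD3 genes thus went the same way in both groups. Over all probe sets, 27.0% were lower in mouse 1 in both groups and 40.2% were higher in both. *Ptcra* was higher in mouse 1, by 0.36 in KO and 0.64 in WT, and *Cd247* and *Gata3* differed by at most 0.05 in size in either group. Of pDC genes, *Siglech*, a surface lectin, was higher in mouse 1 by 0.53 in KO and 1.09 in WT, and *Tcf4*, the E protein that pDCs depend on, by 0.62 and 1.04. Markers of other cells went both ways. The sums of the macrophage and stromal cell genes were lowest in mouse 1 in both groups, and those of the NK cell genes were highest there. Most of the NK cell sum came from *Klrd1*, and the other NK cell genes had no common order of mice. Of single genes picked after their values were seen, *Cd79a*, a B cell receptor chain, differed by -2.47 in KO and -3.41 in WT, and *C1qa*, a complement gene of macrophages, by -3.56 and -3.83. *Blnk*, of the same B cell list as *Cd79a*, went the other way and was highest in mouse 1 in both groups. The other measured B cell genes were lowest there. The part of these other cells in the levels of the CD3 genes and *Ptcra* was not tested.

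The order of mice for *Ptcra* was not that of *Siglech* throughout. *Ptcra* was higher in mouse 3 than in mouse 2 in both groups, whereas *Siglech* was higher in mouse 2 than in mouse 3 in both. Most of the 13 measured pDC markers were likewise higher in mouse 2 than in mouse 3 in both groups, but not all. The probe sets with the pattern most like that of *Ptcra*, by the root mean square difference of log2 values over the 6 arrays after each gene's mean was taken off, were those of *Tmed2* (0.044), *Dhcr7* (0.068) and *Depp1* (0.075), out of 12521 compared. *Dhcr7*, an enzyme of cholesterol synthesis, had 342, 219 and 297 in KO and 376, 222 and 315 in WT.

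**Figure D3:**
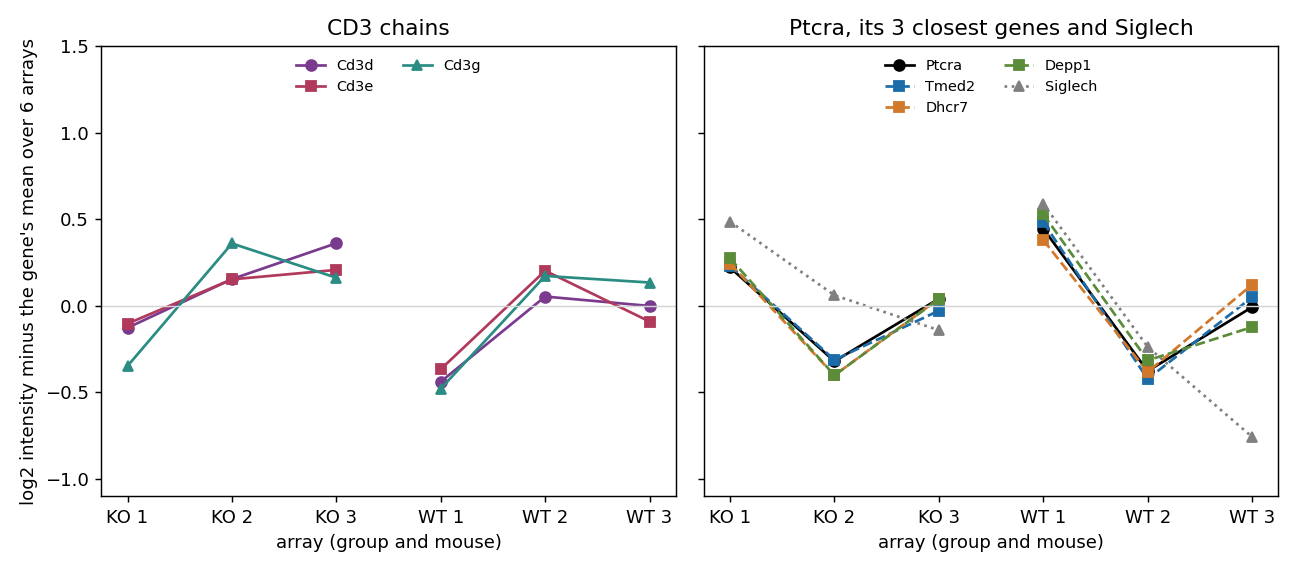
Log2 intensity over the 6 arrays, each gene relative to its own mean, for the CD3 chains (left) and for *Ptcra* with the 3 genes closest to it and the pDC marker *Siglech* (right). Both arrays of mouse 1 are the lowest of their group for *Cd3d*, *Cd3e* and *Cd3g* and the highest of their group for *Ptcra*.

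A wider set of T cell genes was looked at in the same fit. Of 12 T cell markers, which include 3 of the members, all were measured, and 8 lay above the 95th percentile of the receptors. None passed the adjusted p, with or without the block, and at an unadjusted p under 0.05 none did either. With the block 2 did, the member *Cd3d* and *Cd4*, both higher in KO. By the same line 7.46% of all probe sets and 213 of the 1208 receptor probe sets were higher in KO. Their median difference was 0.18. The brightest were the coreceptor genes *Cd4*, *Cd8a* and *Cd8b1*, of which the first and second are also known from mouse dendritic cells, and *Cd28*, the receptor for costimulation. *Cd4* had 1217, 626 and 583 in the KO arrays of mice 1, 2 and 3 and 802, 654 and 385 in the WT arrays, a log2 difference of 0.38 (standard error 0.37, adjusted p = 0.83). *Cd8a* had 725, 335 and 304 in KO and 717, 277 and 183 in WT. *Cd4*, *Cd8a*, *Cd8b1* and *Cd28* were each highest in mouse 1, unlike the CD3 genes. *Thy1*, of the same list and picked after its values were seen, was lowest in mouse 1 in both groups. Relative to the mean of mice 2 and 3 it differed by -0.56 in KO and -1.36 in WT. Genes of this list thus went both ways in mouse 1.

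Of 28 genes of T cell receptor signaling 26 were measured, and 18 lay above the 95th percentile of the receptors. Their median difference was 0.02, and 6 (23.1%) were higher and 4 (15.4%) lower in the KO array of every mouse, against 21.3% higher and 17.4% lower over all probe sets. *Nck1*, an adaptor used in many cells, had 124, 125 and 116 in KO and 145, 153 and 172 in WT, and the groups did not overlap (log2 difference -0.36, standard error 0.10, adjusted p = 0.69). The groups did not overlap, with KO lower, for 2 of the 26 genes and for 1006 of all 21640 probe sets. *Txk*, a kinase of the TEC family, had 38.6, 42.8 and 37.4 in KO and 33.3, 31.7 and 35.4 in WT, all below the 95th percentile of the receptors (0.24, standard error 0.10, adjusted p = 0.70). *Fyn*, a kinase related to LCK, had 2134, 1161 and 924 in KO and 2240, 822 and 652 in WT.

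Of 19 further transcription factors of the T lineage 18 were measured, with a median difference of 0.09, and 15 lay above the 95th percentile of the receptors. *Tox*, which acts in the development of CD4 T cells, had 67.5, 58.3 and 58.6 in KO and 53.2, 44.2 and 52.8 in WT, with no overlap (log2 difference 0.30, standard error 0.12, adjusted p = 0.70), and 1 of its 6 arrays was above the 95th percentile of the receptors. *Runx1*, needed at many steps of blood development, had 729, 686 and 701 in KO and 628, 657 and 634 in WT, again with no overlap (0.14, standard error 0.08, adjusted p = 0.73). In this list the groups did not overlap, with KO higher, for 3 of the 18 genes (16.7%). The same held for 10.2% of all probe sets and 19.8% of the receptor probe sets. *Ikzf1* (Ikaros) had 1184, 837 and 710 in KO and 1318, 653 and 595 in WT. Over the 53 measured genes of these 3 lists outside the members, the median difference was 0.06, KO was higher in every mouse for 22.6% (21.3% of all probe sets) and lower in every mouse for 7.55% (17.4% of all), and the groups did not overlap, with KO higher, for 7.55% (10.2% of all). No gene of the 3 lists passed the adjusted p.

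NK cells, which share *Cd247*, *Zap70* and *Gata3* with T cells, were followed by 12 marker genes. Their median difference was 0.18, and 5 of the 12 lay above the 95th percentile of the receptors. Their summed intensity was 3665, 2996 and 2918 in KO and 3871, 1949 and 1344 in WT, of which *Klrd1*, a lectin-like receptor gene, gave 3045, 2378 and 2149 in KO and 3299, 1431 and 799 in WT. *Ncr1*, the defining NK cell receptor, had 27.4, 29.5 and 43.8 in KO and 24.1, 20.2 and 24.7 in WT, so that all its arrays were below the 95th percentile of the receptors (log2 difference 0.52, standard error 0.20, adjusted p = 0.69). The summed intensity of 13 pDC genes was 44884, 31686 and 29305 in KO and 45763, 24038 and 19181 in WT. That of 7 B cell genes was 2684, 4280 and 4571 in KO and 2608, 6043 and 5676 in WT. Of these sums *Blnk* alone gave 1449, 1152 and 1091 in KO and 1718, 1210 and 995 in WT. The neutrophil genes had median differences of -0.52, -1.88 and -1.50 in mice 1, 2 and 3 and the stromal cell genes of -0.42, -1.51 and -1.60. The part that these shifts of marker genes have in the differences of the T lineage genes was not tested.

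**Figure D4:**
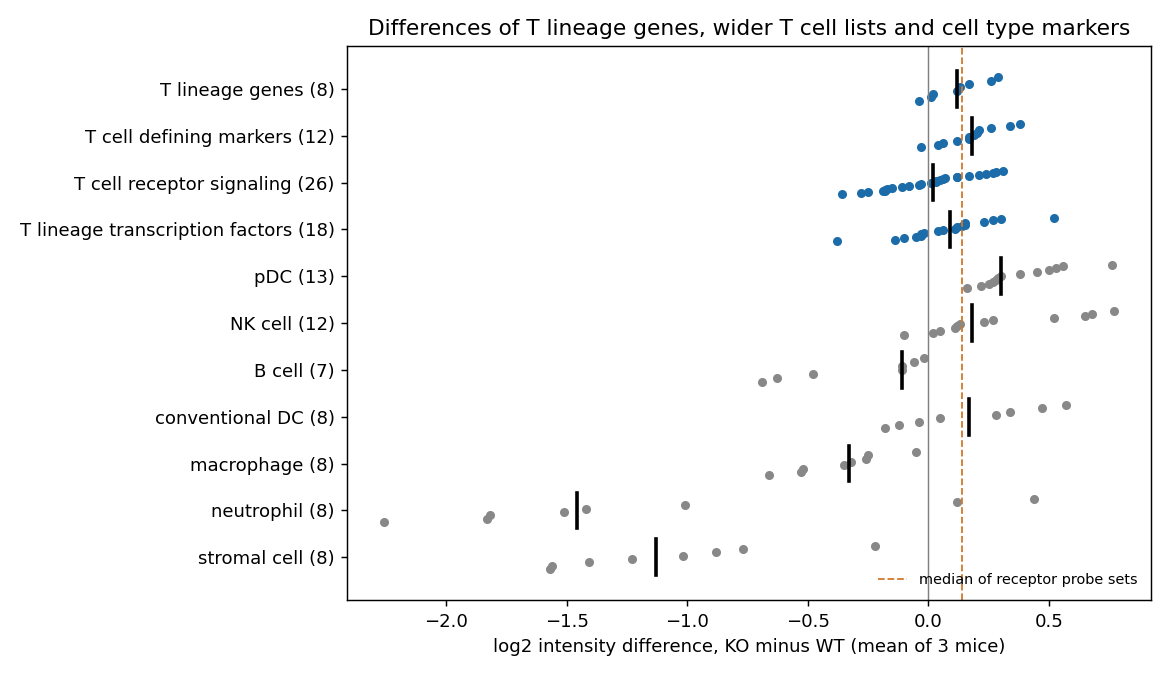
Log2 intensity difference, KO minus WT (mean of 3 mice), of every measured gene in the T lineage list, the 3 wider T cell lists (blue) and the marker lists of other cells (grey), with the number of genes in brackets, the median of each list (black bar) and the median of receptor probe sets (dashed line, 0.14). The T lineage genes lie between -0.04 and 0.29, while neutrophil and stromal cell genes have medians of -1.46 and -1.13.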

How the data were processed

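The series holds 6 Affymetrix Mouse Gene 1.0 ST arrays, 1 per culture. The deposited values are linear intensities of 34760 probe sets, from 3.07 to 19106, with column medians of 69.0 to 72.9. Scaling of the arrays to each other would give such near-equal medians, but the medians alone do not show that it was done. The background correction, normalization and summary are not given in the sources used here. Arrays give no read depth, and 3 per group limit the precision. The platform table pairs 21640 probe sets with 1 symbol, 1321 with several and 11799 with none. The 21640 were log2-transformed, not filtered, and tested in limma 3.58.1 under R 4.3.3 (lmFit, eBayes) as KO against WT, with p-values two-sided and adjusted over all of them by Benjamini-Hochberg. The steps were checked on simulated data. Mice pair the arrays per the labels. Over all probe sets, deviations from the group means of KO and WT arrays of the same mouse correlated at 0.81, 0.51 and 0.67 for mice 1, 2 and 3. Unmatched arrays of mice 2 and 3 correlated at 0.495 (KO of mouse 3 with WT of mouse 2) and 0.416 (KO of mouse 2 with WT of mouse 3). These values thus set mouse 1 apart but hardly check the pairing of mice 2 and 3. Alternatives tried were mouse as a blocking factor, normalization, centring, a floor, filters, the variance model, the choice of probe sets and leaving out arrays or mice. Members and lists were chosen with earlier results of these data known. Named genes outside the members are among the 4 brightest or the 4 with the smallest p of their list. Others are the targeted *Gfi1* and *Gfi1b*, or follow the likeness rule (the 3 probe sets closest to *Ptcra*). The rest are *Siglech*, *Tcf4*, *Cd79a* and *C1qa*, which stand for the makeup of the arrays, and *Ebf1*, *Cd2* and *Thy1*. Of this rest all but *Siglech* were picked after their values were seen. Listed genes that had no probe set of 1 symbol in the table are not reported here.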

Additional observations from a re-analysis of the deposited data

How the results depend on the processing

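No alternative brought any of the 8 T lineage genes past an adjusted p of 0.05 in limma, and *Bcl11b*, *Cd3d*, *Cd3e* and *Zap70* were above 0 in KO under all that gave a value. *Bcl11b* ran from 0.21 to 0.36 (adjusted p 0.17 to 1), *Cd3e* from 0.03 to 0.31 (0.51 to 1) and *Cd3d* from 0.10 to 0.39 (0.36 to 1), with the lowest *Cd3d* value without the WT array of mouse 1. With the mouse as a replicate block 0 probe sets and 0 members were called, as without it. A quantile normalization of the deposited values gave *Cd247* -0.05, *Ptcra* 0.01 and *Gata3* -0.10, and a median over the members of 0.06. Centring arrays on their medians gave *Cd247* -0.01 and *Gata3* -0.02. With only probe sets at or above the median level, 2 members were left, with a median of 0.07 and 0 higher in every mouse. At or above the receptor level 3 were left, 1 of them higher in every mouse. With arrays or mice left out, *Cd3g* ran from -0.10 to 0.32, *Cd247* from -0.07 to 0.12, *Ptcra* from -0.24 to 0.17, *Gata3* from -0.15 to 0.19 and the median from 0.07 (without the WT array of mouse 1) to 0.19 (without the KO array of mouse 1). Between 4 and 5 members were higher in every remaining mouse with 1 mouse left out, a count that single arrays left out cannot give. Leaving out a mouse can only keep or raise this count. Its share over all probe sets was not taken, so the rise says nothing about the members. The number of probe sets called ran from 0 to 108 and that of the wider and marker lists from 0 to 13, with 108 and 13 without mouse 1. These 13 were all lower in KO, 7 stromal cell and 4 neutrophil genes, *Ebf1* and 1 gene of the T cell lists, *Cd2*, whose difference was 1.32 in mouse 1 against -0.98 and -0.79 in mice 2 and 3 (mean -0.15, adjusted p = 0.97). At an unadjusted p under 0.05, 1113 probe sets were higher in KO, against 568 after quantile normalization, 554 after centring, 4929 with a floor, 258 without mouse 2 and 2115 without mouse 1. The causes were not tested. Most members lie near the signal of receptor probe sets, which limits what these arrays show of them.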
